A study of Mus musculus with 9 samples.

Results

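The miR-30 family of mature miRNAs was described in small RNA sequencing (sRNA-seq) of mouse Meis1/Hoxa9 cells with and without the terminal uridylyl transferases TUT4 and TUT7. Its 7 members were taken by name from the 817 mature miRNAs listed, 5 of them from the 5p arm and 2 from the 3p arm. Those of the 5p arm are listed as mmu-miR-30a-5p, mmu-miR-30b-5p, mmu-miR-30c-5p, mmu-miR-30d-5p and mmu-miR-30e-5p, those of the 3p arm as mmu-miR-30a-3p and mmu-miR-30e-3p, and the prefix is left out from here on. A further 4 arms of the family were listed (miR-30b-3p, miR-30c-1-3p, miR-30c-2-3p and miR-30d-3p) and are given as context. All cells came from c-Kit-enriched cells of mid-gestation fetal liver of mice that carried Tut4 fl/fl and Tut7 fl/fl alleles on a C57BL/6 background. They were transduced with retroviruses that express the oncogenes Meis1 and Hoxa9 and replated serially with SCF, IL-3, IL-6 and GM-CSF. Liquid culture of such cells held SCF, IL-6 and IL-3. The labels call the cells preLSC, and the methods of the study call cells of this kind preleukemic. The 4 Tut4/7cKO libraries came from Vav-iCre+ cells, in which the Vav promoter drives the recombinase in the hematopoietic system. The 5 Tut4/7CTL libraries, called WT in the labels, came from littermates without the recombinase. The methods of the study state that replicates of such cells came from separate animals or embryos, and the labels do not tie single libraries to them.

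A miRNA hairpin is cut into a duplex of a 5p and a 3p strand, and the strand kept by an Argonaute protein finds its targets through the seed at its 5′ end. The 5p strands of miR-30 share their seed, while the 3p strands carry other seeds and so other targets. TUT4 and TUT7 add uridines, read as T in sequencing, to the 3′ ends of many RNAs, among them miRNAs and their precursors. In the data an added T is any T past the annotated 3′ end of a mature miRNA, and it is called uridylation in the text, although a T that the genome encodes at this place gives the same read.

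The mature sequences are shown to let the arms be told apart, with the seed, bases 2 to 8, in capitals. They were rebuilt from the deposited reads, and 5 of the 7 were matched to an identical entry of RefSeq (GRCm38.p6).
miR-30a-5p: tGTAAACAtcctcgactggaag
miR-30d-5p: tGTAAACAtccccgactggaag
miR-30e-5p: tGTAAACAtccttgactggaag
miR-30b-5p: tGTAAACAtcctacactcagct
miR-30c-5p: tGTAAACAtcctacactctcagc
miR-30a-3p: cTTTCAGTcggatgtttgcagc
miR-30e-3p: cTTTCAGTcggatgtttacagc
The seed of the 5p arms was held by 5 listed miRNAs, which were the 5 members. The seed of the 2 members of the 3p arm was held by 3 listed miRNAs, these 2 and miR-30d-3p, and not by the other 3p arms of the family. miR-30a-5p differed from miR-30d-5p at 1 base and from miR-30e-5p at 1 base, and miR-30a-3p differed from miR-30e-3p at 1 base. Reads were mapped without mismatches, and at most 0.237% of the reads of a member also fitted another mature sequence.

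The genes lie on chromosomes 1, 4 and 15 of the GRCm39 genome. Each sequence is shown with the 3 bases that follow it on its strand in capitals, since these decide whether an added T could be encoded.
miR-30a-5p, chr1:23311355-23311376, plus strand: tgtaaacatcctcgactggaagCTG
miR-30d-5p, chr15:68213106-68213127, minus strand: tgtaaacatccccgactggaagCTG
miR-30e-5p, chr4:120629857-120629878, minus strand: tgtaaacatccttgactggaagCTG
miR-30b-5p, chr15:68209318-68209339, minus strand: tgtaaacatcctacactcagctGTC
miR-30c-5p, chr1:23330795-23330817, plus strand, and chr4:120626781-120626803, minus strand: tgtaaacatcctacactctcagcTGT
miR-30a-3p, chr1:23311396-23311417, plus strand: ctttcagtcggatgtttgcagcTGC
miR-30e-3p, chr4:120629815-120629836, minus strand: ctttcagtcggatgtttacagcGGC
Mir30e and Mir30c-1 lie in an intron of Nfyc, Mir30c-2 in an exon of the lncRNA Gm27028 and Mir30d in an exon of the lncRNA Gm20732, each on the strand of its host. The annotation has no host gene for Mir30a or Mir30b. A T follows miR-30c-5p at both of its genes and miR-30a-3p at its own. The other 5 members are followed by C or G, and their mature sequence with an added T was found at 0 places in the genome. Reads were mapped to mature sequences lengthened by 3 Ts only, so a read that ran on into a genomic C or G could not be listed. A T added to an end short of the annotated one could not be counted as added either. Short reads still count in the total of each share, so shares cover only Ts past the annotated 3′ end. Reads that ran on into a genomic C or G are missing from that total, so each share is one of listed reads.

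The libraries held 175462 to 479342 miRNA reads. Library 2 of Tut4/7CTL stood apart: its median uridylated share over 138 miRNAs was 0.644%, against at least 3.50% in the other Tut4/7CTL libraries, so results on added Ts are also given without it. This median was 3.38% ± 1.60 (SD, n = 5) in Tut4/7CTL against 0.132% ± 0.0563 (SD, n = 4) in Tut4/7cKO, and the groups did not overlap. The mRNAs of Tut4 and Tut7 were not measured in these files. Of the miRNAs that mark blood cells, miR-223-3p (372 to 3778 reads) and miR-155-5p (195 to 3491 reads) were present in every library, whereas miR-142a-3p, abundant in most blood cells, had 12 to 55 reads. The liver miRNA miR-122-5p had 102 to 554 reads, the erythroid miR-451a and the muscle miR-1a-3p had 0 to 2 each and the neuronal miR-124-3p had 0. The part of these markers in the results was not tested.

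Abundance was compared first. Of all miRNA reads, the members made up 1.32% ± 0.223 (SD, n = 5) in Tut4/7CTL against 1.38% ± 0.232 (SD, n = 4) in Tut4/7cKO. Abundance did not pass the test in any of the 6 members tested with edgeR, and over all 205 miRNAs tested it passed in 1 (0.488%), with an unadjusted p under 0.05 in 31. DESeq2 called 11 of all miRNAs and also 0 members. Levels are given as CPM, read counts scaled to a common library size with edgeR's TMM factors, and levels of different miRNAs also reflect how well each one is ligated.

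miR-30d-5p and miR-30c-5p made up most of the family. In CPM, miR-30d-5p had 5516, 7590, 5320, 6413 and 5689 in Tut4/7CTL against 9430, 5048, 9127 and 8458 in Tut4/7cKO. The groups overlapped, since library 2 of Tut4/7cKO was the lowest of all 9. The fitted log2 fold change was 0.39 ± 0.26 (SE, edgeR's quasi-likelihood test, adjusted p = 0.522). miR-30c-5p had 3930, 3962, 4738, 5101 and 3243 CPM in Tut4/7CTL against 3763, 4529, 5207 and 4655 in Tut4/7cKO, which overlapped (log2 fold change 0.11 ± 0.25, adjusted p = 0.854 in edgeR). Both together gave 96.2% ± 0.711 (SD, n = 5) of the 5p reads of the family in Tut4/7CTL against 97.0% ± 1.18 (SD, n = 4) in Tut4/7cKO. By mean CPM, miR-30d-5p ranked 32 among all miRNAs in Tut4/7CTL against 26 in Tut4/7cKO, and miR-30c-5p ranked 37 and 33.

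The other 5p members were scarce. miR-30a-5p had 277, 282, 279, 318 and 132 CPM in Tut4/7CTL against 191, 130.4, 237 and 219 in Tut4/7cKO, and the groups overlapped only through library 5 of Tut4/7CTL (log2 fold change −0.40 ± 0.33, adjusted p = 0.636 in edgeR). miR-30b-5p had 165, 139, 82.3, 171 and 109 CPM in Tut4/7CTL against 109, 70.6, 82.2 and 412 in Tut4/7cKO, with library 4 of Tut4/7cKO far above the rest (log2 fold change 0.35 ± 0.53, adjusted p = 0.80 in edgeR). Without that library the estimate was −0.72. miR-30e-5p had 75 reads in all, 3 to 20 a library, and was below the filter for the test.

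The 3p members lay between these levels. miR-30e-3p had 1000.5, 1104, 1088, 1089 and 868 CPM in Tut4/7CTL against 778, 1755, 1491 and 503 in Tut4/7cKO, so the Tut4/7cKO libraries lay on both sides of the Tut4/7CTL ones (log2 fold change 0.14 ± 0.38, adjusted p = 0.887 in edgeR). miR-30a-3p had 795, 640.3, 1132, 802 and 458 CPM in Tut4/7CTL against 335, 435, 733 and 186 in Tut4/7cKO. It was the member with the lowest fold change, −0.86 ± 0.43 on the log2 scale, with an adjusted p of 0.358 in edgeR, and the groups overlapped.

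**Figure D1:**
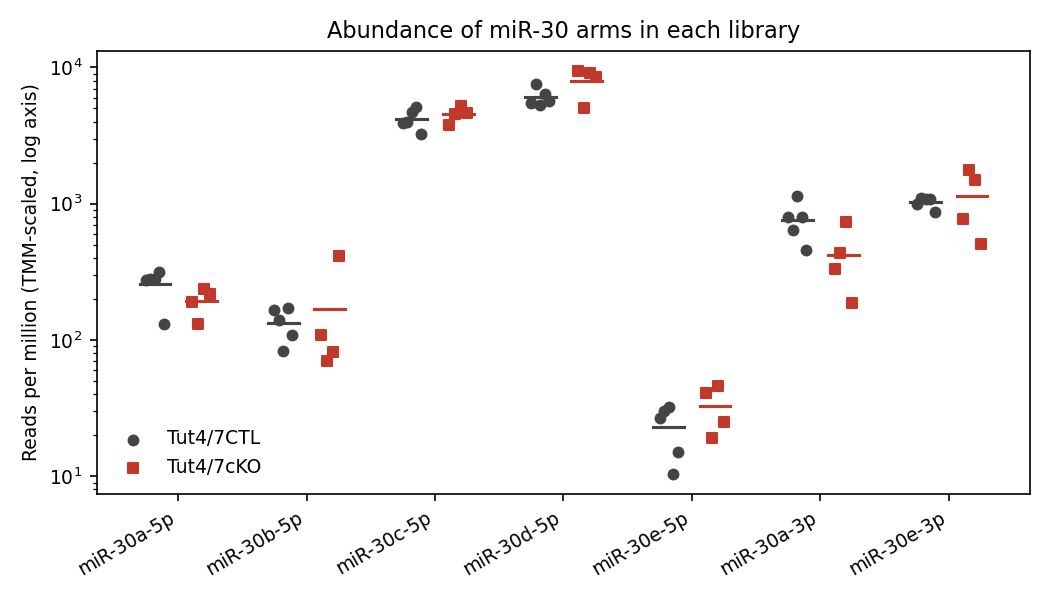
CPM, scaled by TMM factors, of each miR-30 member on a log axis, with 1 point per library (5 Tut4/7CTL, 4 Tut4/7cKO) and a bar at the group mean. miR-30d-5p and miR-30c-5p lie highest and miR-30e-5p lowest in both genotypes, and the genotypes overlap for all 7 members.

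Over the 9 libraries, the summed 5p members varied most like miR-148a-3p, miR-26a-5p and miR-103-3p. After each log2 CPM profile was centred on its own mean, the root mean square difference from the 5p sum was 0.210, 0.225 and 0.228, against a median of 0.700 over the 187 other miRNAs compared. For the summed 3p members the nearest were miR-126a-3p (0.302), miR-27a-5p (0.371) and miR-3074-5p (0.385), with a median of 0.861.

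The arms of a hairpin were compared within each library, since both come from the same precursor. Their read ratio also reflects how well each arm is ligated. Reads that ran on into a genomic C or G could not be listed for either arm, so the ratio is one of listed reads. The part of either limit was not tested. In miR-30a the 3p arm gave 3.04 ± 0.727 (SD, n = 5) reads per 5p read in Tut4/7CTL against 2.26 ± 1.17 (SD, n = 4) in Tut4/7cKO. Library 4 of Tut4/7cKO was the only library with more 5p than 3p reads (0.851 3p reads per 5p read). The log2 ratio of 5p to 3p reads was −1.57 ± 0.340 in Tut4/7CTL against −0.98 ± 0.912 in Tut4/7cKO. The difference of 0.59 did not pass (two-sided exact permutation test, p = 0.270, smallest possible 0.0159). It was 0.18 without library 4 of Tut4/7cKO (p = 0.607, same exact permutation test). In miR-30e the 3p arm prevailed in all 9 libraries, with 53.9 ± 29.6 (SD, n = 5) 3p reads per 5p read in Tut4/7CTL against 41.0 ± 34.8 (SD, n = 4) in Tut4/7cKO. Its log2 ratio differed by 0.58 between genotypes (two-sided exact permutation test, p = 0.302), a value that rests on 3 to 20 reads of miR-30e-5p a library. Without library 2 of Tut4/7cKO the difference was 1.08 (p = 0.0357, exact permutation test, the smallest possible with 5 against 3 libraries).

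Uridylation was compared next. In Tut4/7cKO the share of reads with added Ts fell in both 3p members, whereas it did not pass the test in the 3 members of the 5p arm that entered it (miR-30d-5p, miR-30c-5p and miR-30a-5p), which there had added Ts on 24.2% to 37.7% of their reads on average. So 2 of the 5 members tested fell, against 85 of 143 miRNAs tested (59.4%). Entry asked for tailed reads in 3 or more Tut4/7CTL libraries and not in Tut4/7cKO. Shares of miRNAs that fell, here and below, therefore lean toward a fall. With an entry rule that took tailed reads of either genotype, 85 miRNAs and 2 members passed. The number that entered under that rule is not given here, so these counts yield no share. Without library 2 of Tut4/7CTL 100 of the 143 miRNAs and the same number of members, 2, fell. Over all miRNAs of the 5p arm 33 of 71 (46.5%) fell, and over those of the 3p arm 49 of 64 (76.6%). The median log2 odds ratio of uridylation, Tut4/7cKO over Tut4/7CTL, was −2.84 over all 143, −1.46 over the 5p arms and −3.89 over the 3p arms.

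The reads behind these shares are shown with the added T in capitals, for the members in which it was not encoded (miR-30a-5p, miR-30d-5p, miR-30e-5p and miR-30e-3p) and in which it could be (miR-30c-5p and miR-30a-3p). Over all libraries they had 148, 5003, 10, 25, 4892 and 9 reads, in the order of the lines.
miR-30a-5p: tgtaaacatcctcgactggaagT
miR-30d-5p: tgtaaacatccccgactggaagT
miR-30e-5p: tgtaaacatccttgactggaagT
miR-30e-3p: ctttcagtcggatgtttacagcT
miR-30c-5p: tgtaaacatcctacactctcagcT
miR-30a-3p: ctttcagtcggatgtttgcagcT

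miR-30d-5p, the most abundant member, carried an added T that its gene does not encode. The uridylated share was 22.7%, 23.4%, 32.9%, 23.6% and 49.3% in the Tut4/7CTL libraries and 32.5%, 30.1%, 25.5% and 15.6% in the Tut4/7cKO libraries. The highest value was a Tut4/7CTL library and the lowest a Tut4/7cKO library, and the others overlapped. The log2 odds ratio was −0.30 ± 0.51 (SE, edgeR's quasi-likelihood test, adjusted p = 0.624) and −0.42 without library 2 of Tut4/7CTL (adjusted p = 0.270 in edgeR). Without library 5 of Tut4/7CTL, the highest, it was −0.0055, and without library 4 of Tut4/7cKO, the lowest, −0.013.

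miR-30a-5p shares its last 10 bases with miR-30d-5p, and its added T is not encoded either. Its share was 17.7%, 21.3%, 34.7%, 20.9% and 28.6% in Tut4/7CTL against 28.6%, 18.8%, 23.1% and 26.4% in Tut4/7cKO, so the Tut4/7cKO libraries lay inside the range of the Tut4/7CTL ones. The log2 odds ratio was −0.03 ± 0.40 (adjusted p = 0.957 in edgeR), or −0.11 without library 2 of Tut4/7CTL (adjusted p = 0.810). These shares rest on 28 to 104 reads a library, and their 95% Wilson intervals were up to 31.8 percentage points wide. For miR-30e-5p, below the read filter of this test, 5 of 32 reads in Tut4/7CTL against 7 of 43 in Tut4/7cKO had added Ts.

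Among the 81 tested miRNAs that no genomic T follows, the mean uridylated share in Tut4/7cKO had a median of 0.252%. miR-30d-5p ranked 3 in this set with 25.9% ± 7.45 (SD, n = 4), beside 30.4% ± 11.4 (SD, n = 5) in Tut4/7CTL, and miR-30a-5p ranked 5 with 24.2% ± 4.28 (SD, n = 4), beside 24.7% ± 6.89 (SD, n = 5). In the whole set 55 of 81 fell (67.9%), against 30 of 61 (49.2%) of the tested miRNAs followed by a genomic T.

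miR-30c-5p, whose first added T is also the next base of both its genes, had the highest mean shares of the members. The shares were 36.1%, 46.5%, 44.2%, 37.9% and 57.01% in Tut4/7CTL against 36.5%, 46.6%, 34.1% and 33.8% in Tut4/7cKO. The groups overlapped, with a log2 odds ratio of −0.40 ± 0.45 (adjusted p = 0.453 in edgeR), or −0.36 without library 2 of Tut4/7CTL (adjusted p = 0.325). miR-30b-5p had no read with an added T in any library (0 of 180 reads in Tut4/7CTL against 0 of 242 in Tut4/7cKO). Its depth allows a share of up to 6.12% to 10.7% in single Tut4/7CTL libraries and 1.83% to 18.8% in single Tut4/7cKO libraries, taking 3 reads as the limit of a count of 0, and it did not enter the test.

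**Figure D2:**
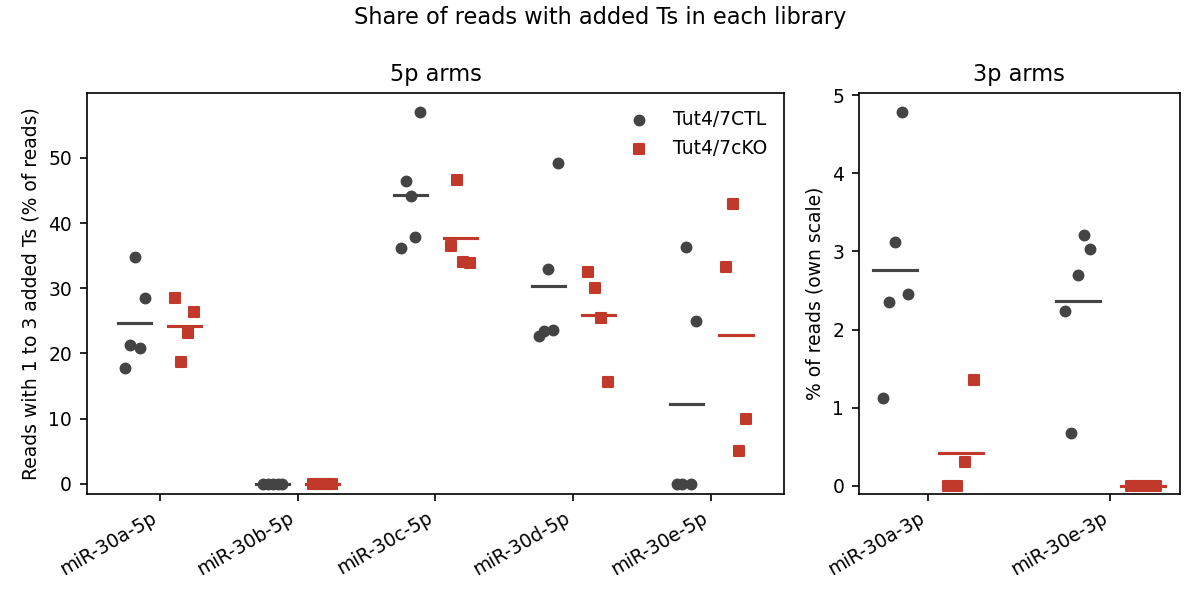
Percent of reads with 1 to 3 added Ts for each miR-30 member, with 1 point per library (5 Tut4/7CTL, 4 Tut4/7cKO) and a bar at the group mean, 5p arms on the left and 3p arms on the right on an axis of their own. The genotypes overlap for each 5p member, miR-30b-5p is at 0 throughout, and miR-30e-3p is at 0 in all 4 Tut4/7cKO libraries.

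Both 3p members were tailed at a few percent in Tut4/7CTL. miR-30e-3p, whose added T is not encoded, had shares of 2.23%, 0.683%, 2.70%, 3.21% and 3.03% in Tut4/7CTL and no tailed read in any Tut4/7cKO library (0 of 114, 0 of 646, 0 of 653 and 0 of 200 reads). The groups did not overlap, which held for 49 of the 143 miRNAs (34.3%). With 34 of 1430 reads against 0 of 1613, which allows a share of up to 0.186%, the share was at least 12.8-fold lower in Tut4/7cKO, taking 3 reads over the group as the floor (adjusted p = 0.000276 in edgeR, 3.87e-09 without library 2 of Tut4/7CTL). The bound was 15.1 without library 2 of Tut4/7CTL, 7.61 without library 3 of Tut4/7cKO and 7.66 without library 2 of Tut4/7cKO.

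miR-30a-3p had 1.12%, 2.35%, 3.12%, 4.78% and 2.46% in Tut4/7CTL against 0%, 0%, 0.312% and 1.35% in Tut4/7cKO. The groups overlapped, because 1 tailed read among the 74 of library 4 of Tut4/7cKO put it above library 1 of Tut4/7CTL. The pooled counts were 32 of 1085 reads against 2 of 604. The log2 odds ratio was −2.72 ± 0.82 (adjusted p = 0.0106 in edgeR) and −2.86 without library 2 of Tut4/7CTL (adjusted p = 0.000808 in edgeR). Without library 3 of Tut4/7cKO, which holds 321 of the 604 reads, it no longer passed (log2 odds ratio −2.49, adjusted p = 0.0604 in edgeR), and over the alternatives the adjusted p ranged from 0.000808 to 0.0604.

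The other 3p arms of the family that entered the test, through their tailed reads in Tut4/7CTL, also fell. miR-30c-2-3p had 27 tailed reads of 614 in Tut4/7CTL against 0 of 312 in Tut4/7cKO (at least 4.57-fold lower, adjusted p = 0.00617 in edgeR), a bound that was 2.54 without library 3 of Tut4/7cKO and 5.13 without library 2 of Tut4/7CTL. miR-30b-3p had 9 of 1091 and 0 of 1156 (at least 3.18-fold lower, adjusted p = 0.0122 in edgeR), with bounds of 1.89 and 3.92 without the same libraries. In both, library 2 of Tut4/7CTL had no tailed read, so the groups overlapped at 0. miR-30c-1-3p had no tailed read among 227 and miR-30d-3p had 24 reads in all, and neither entered the test.

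Whether genotype moved the arms of a hairpin differently was tested on the difference in the log2 odds of uridylation, 3p minus 5p, in each library, with 0.5 added to each read class. In miR-30a it was −3.98, −3.36, −4.001, −2.36 and −3.81 in Tut4/7CTL against −5.36, −6.27, −6.02 and −4.16 in Tut4/7cKO. All Tut4/7cKO libraries lay below all Tut4/7CTL libraries, by a mean of −1.95 (two-sided exact permutation test, p = 0.0159, the smallest possible). In miR-30e it was −1.62, −2.78, −4.36, −2.04 and −3.68 in Tut4/7CTL against −6.99, −9.97, −6.65 and −5.98 in Tut4/7cKO, a mean difference of −4.50 (p = 0.0159, same exact permutation test), again without overlap. The contrast was not computed for other hairpins, so it is not shown to be particular to these. Over all miRNAs tested for uridylation, the median log2 odds ratio was −1.46 in 5p arms and −3.89 in 3p arms. Adjusted over the 4 arm comparisons (both ratios and both contrasts, Benjamini-Hochberg), the exact permutation p was 0.0317 for each contrast and 0.302 for each ratio. Without library 2 of Tut4/7CTL the differences were −1.91 and −4.47 (both p = 0.0286 in the exact permutation test, the smallest possible with 4 against 4).

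This contrast depends on its scale. In percentage points of uridylated share, 3p minus 5p, the genotypes differed by −1.91 in miR-30a (p = 0.667) and −12.9 in miR-30e (p = 0.317), and neither passed the exact permutation test. In Tut4/7cKO 6 of the 8 shares of 3p members were 0, so their log2 odds there follow the number of reads and the 0.5 added, and miR-30e-5p brings 3 to 20 reads a library. With 1 added in place of 0.5 the differences were −1.40 (p = 0.0317) and −3.27 (p = 0.0159, exact permutation test).

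Tails were then divided by length. Reads with exactly 1 added T made up most tails and gave the same calls as all tails: both 3p members fell and the 3 members of the 5p arm did not pass, against 81 of 139 miRNAs that fell (58.3%), or 97 without library 2 of Tut4/7CTL. For miR-30a-3p the log2 odds ratio of 1 added T was −2.58 (adjusted p = 0.0124 in edgeR, 0.0661 without library 3 of Tut4/7cKO). Tails of 2 or 3 Ts, which the genome encodes after no member, fell in 49 of 65 miRNAs tested (75.4%), or 56 without library 2 of Tut4/7CTL. This share leans toward a fall in the same way, since entry asked for such tails in Tut4/7CTL libraries only. Of the 3 members tested, miR-30c-5p fell.

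The longer tails of miR-30c-5p and miR-30d-5p are shown by their most frequent form, with the added Ts in capitals (46 and 68 reads over all libraries).
miR-30c-5p: tgtaaacatcctacactctcagcTT
miR-30d-5p: tgtaaacatccccgactggaagTT
In miR-30c-5p, the share of reads with 2 or 3 added Ts was 0.795%, 0.190%, 0.683%, 1.03% and 1.62% in Tut4/7CTL against 0%, 0.12%, 0% and 0% in Tut4/7cKO, without overlap. The nearest libraries differed little, with 2 of 1052 reads in library 2 of Tut4/7CTL and 2 of 1667 in library 2 of Tut4/7cKO. In how many other miRNAs such tails did not overlap is not given here. The log2 odds ratio was −4.48 ± 1.13 (adjusted p = 0.000265 in edgeR) and −4.78 without library 2 of Tut4/7CTL (adjusted p = 3.9e-09 in edgeR). Among tailed reads only, 49 of 2565 (1.91%) had 2 or 3 Ts in Tut4/7CTL against 2 of 2380 (0.0840%) in Tut4/7cKO.

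In miR-30d-5p the longer tails did not pass the test. Their share was 0.567%, 0.397%, 0.332%, 0.490% and 0.264% in Tut4/7CTL against 0.362%, 0.431%, 0.30% and 0.327% in Tut4/7cKO, with the Tut4/7cKO libraries inside the range of the Tut4/7CTL ones (log2 odds ratio −0.29 ± 0.84, adjusted p = 0.736 in edgeR). Among its tailed reads 34 of 2526 (1.35%) had 2 or 3 Ts in Tut4/7CTL against 36 of 2553 (1.41%) in Tut4/7cKO. The difference between miR-30c-5p and miR-30d-5p was not itself tested. miR-30e-3p had 4 such reads in Tut4/7CTL against 0 in Tut4/7cKO (adjusted p = 0.0682 in edgeR, 0.0489 without library 2 of Tut4/7CTL), miR-30a-3p had 4 and 0, and miR-30a-5p had 2 and 2.

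**Figure D3:**
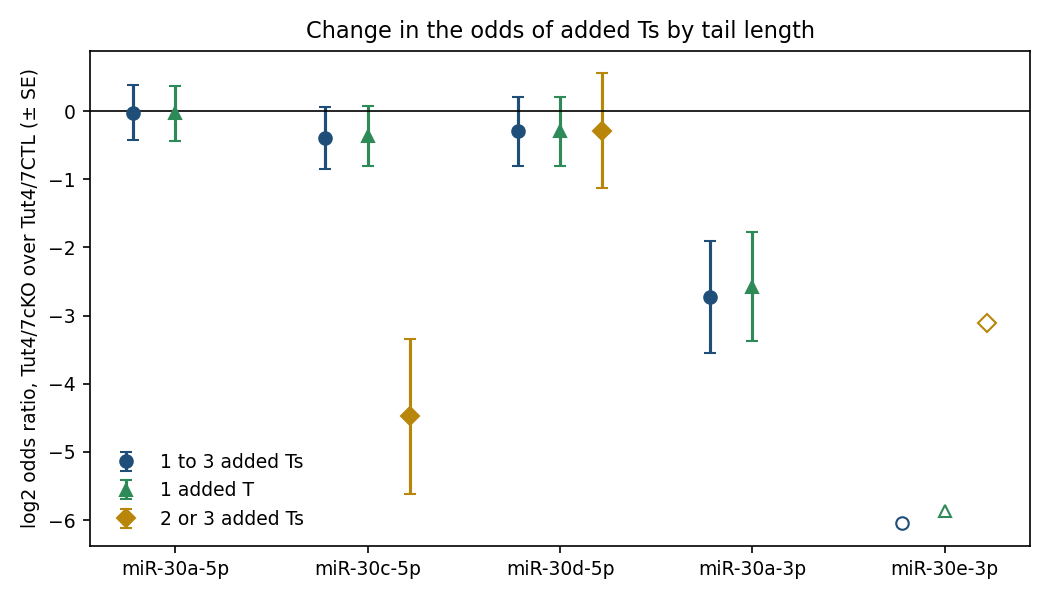
Log2 odds ratio of reads with added Ts, Tut4/7cKO over Tut4/7CTL, for the members tested. Circles mark 1 to 3 added Ts, triangles 1 and diamonds 2 or 3, and bars the SE derived from edgeR's F statistic. Open symbols mark miR-30e-3p, which had no tailed read in Tut4/7cKO, so that its fitted value depends on edgeR's prior count and has no bar. miR-30a-5p and miR-30d-5p lie near 0 at each tail length shown, miR-30c-5p lies near 0 for 1 added T and at −4.48 for 2 or 3, and miR-30a-3p lies below −2 for 1 added T.

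Reads that stop short of the annotated 3′ end were counted next. Reads that ended before the annotated 3′ end made up 52.0% ± 2.66 (SD, n = 5) of miR-30a-5p in Tut4/7CTL against 53.7% ± 10.2 (SD, n = 4) in Tut4/7cKO. For miR-30d-5p they made up 37.9% ± 3.55 and 40.9% ± 4.35. In both members the shorter reads ended mostly 2 bases short, on 32.5% ± 3.80 of reads in miR-30a-5p and 26.5% ± 2.65 in miR-30d-5p in Tut4/7CTL. miR-30c-5p was seldom short (5.46% ± 1.32 and 6.49% ± 1.67), and miR-30b-5p likewise (4.51% ± 3.01 and 9.01% ± 2.42).

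The 3p members ended short at another place. In Tut4/7CTL 25.9% ± 4.16 (SD, n = 5) of miR-30e-3p and 18.1% ± 5.46 of miR-30a-3p ended 3 bases short. All short reads together were 35.7% ± 3.69 of miR-30e-3p in Tut4/7CTL against 40.8% ± 5.08 in Tut4/7cKO, and 31.6% ± 4.35 and 38.5% ± 11.2 of miR-30a-3p. The odds of ending short did not pass the edgeR test in any of the 6 members tested, with log2 odds ratios of 0.10 to 1.05 and adjusted p of 0.314 to 0.949, against 9 of 187 miRNAs (4.81%) in which it was higher in Tut4/7cKO. The median over the 187 was 0.27.

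**Figure D4:**
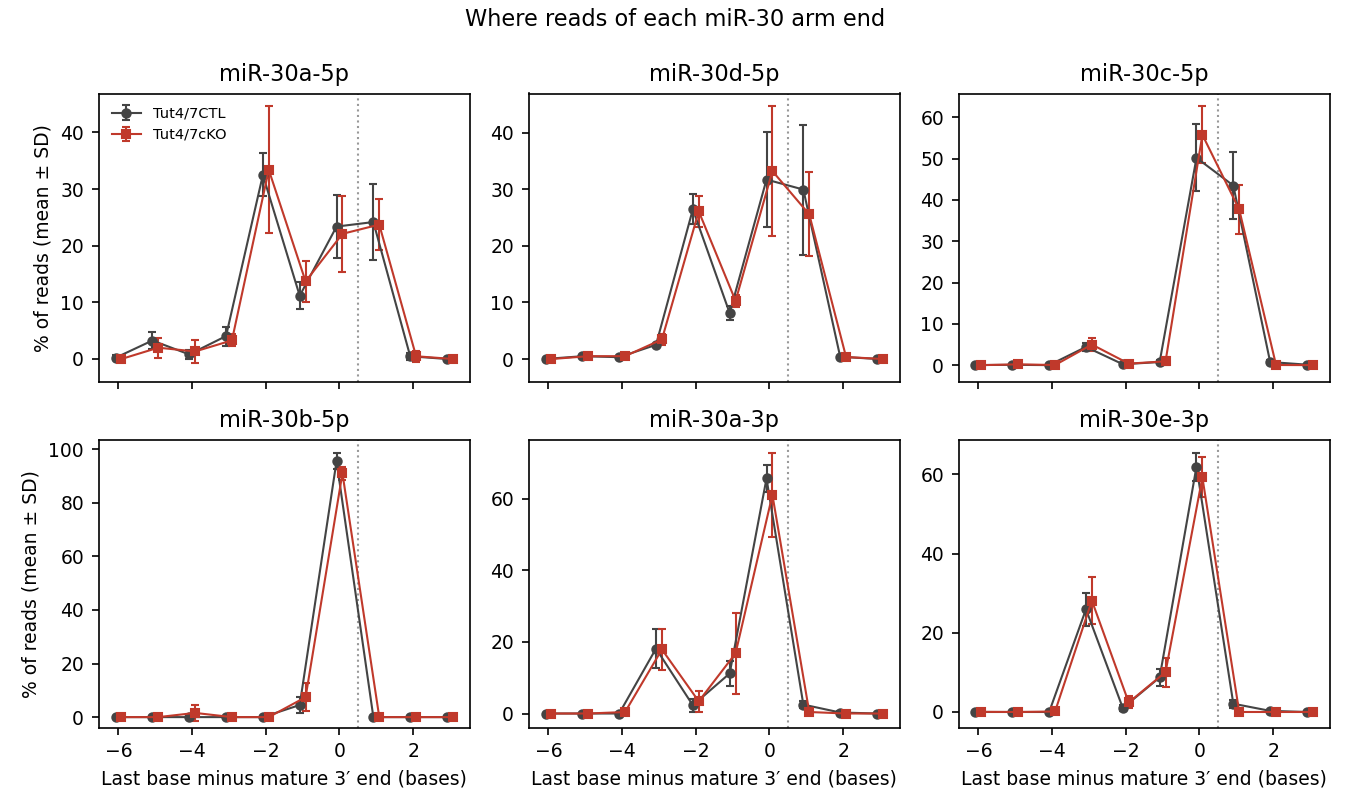
Percent of reads (mean ± SD, 5 Tut4/7CTL and 4 Tut4/7cKO libraries) that end at each base relative to the annotated 3′ end, for 6 members, each panel with its own vertical axis. Positions right of the dotted line are added Ts. miR-30a-5p and miR-30d-5p have peaks at −2, 0 and 1, miR-30c-5p at 0 and 1, miR-30b-5p at 0 alone, and the 3p members at −3 and 0, in both genotypes.

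The 5′ end sets the seed. At most 0.264% of reads of miR-30c-5p and miR-30d-5p began after the first mature base in any library. Of the scarcer 5p members, in Tut4/7CTL against Tut4/7cKO, 3 of 358 and 2 of 267 reads of miR-30a-5p did so. For miR-30b-5p the counts were 0 of 180 and 0 of 242, and for miR-30e-5p 0 of 32 and 1 of 43. In miR-30a-3p 26.7% ± 2.58 (SD, n = 5) of reads began after the first mature base in Tut4/7CTL against 24.8% ± 4.32 (SD, n = 4) in Tut4/7cKO. In miR-30e-3p these shares were 3.29% ± 1.08 and 2.96% ± 1.47. The tailed form from the second base, tttcagtcggatgtttgcagcT, shown because it moves the seed by a base, had 21 reads, more than the 9 of the tailed form from the first base.

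Tailed reads were then counted by their first base. Pooled over the Tut4/7CTL libraries, 23 of 280 miR-30a-3p reads from the second base were tailed (8.21%) and 9 of 805 from the first (1.12%), and in Tut4/7cKO 1 of 138 and 1 of 466. In miR-30e-3p the counts in Tut4/7CTL were 7 of 46 (15.2%) from the second base and 27 of 1383 (1.95%) from the first, and in Tut4/7cKO 0 of 49 and 0 of 1564. The share was higher from the second base in 5 of 5 Tut4/7CTL libraries for miR-30a-3p and in 4 of 5 for miR-30e-3p, and it is given as a description with no test.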

How the data were processed

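The sRNA-seq libraries were made from total RNA with a NEBNext kit without molecular identifiers. Adapters were trimmed by the authors with cutadapt 5.0, and Bowtie 1.3.1 aligned the reads, without mismatches, to miRBase mature sequences lengthened by 3 Ts. The miRBase release is not given in the sources used here, and DESeq2 1.42.1 is also named in the submitters' processing notes. They deposited raw counts, without normalization, per mature miRNA and per distinct read with its start, end and a uridylation mark. These 2 forms were checked against each other, with 0 differences.

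Abundance was tested with edgeR 4.0.16 (R 4.3.3; TMM, glmQLFit, glmQLFTest) where 4 or more libraries held 10 or more reads of a miRNA. Added Ts and short reads were tested in edgeR as the interaction of read class with genotype, with a term per library, where 5 or more libraries held 10 or more reads and 3 or more Tut4/7CTL libraries held a read of the class. P values were adjusted over all miRNAs tested (Benjamini-Hochberg, threshold 0.05). The SE of an edgeR log2 value was derived as its absolute size divided by the square root of the test's F statistic. Arm ratios and contrasts were compared with two-sided exact permutation tests that went through every assignment of the libraries to the genotypes. Wilson intervals (95%, SciPy 1.17.1) and the limit of 3 reads for a count of 0 cover counting error only.

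All 7 members were named whatever their values, the other miR-30 arms as context, and the 3 miRNAs nearest in profile to each arm's sum. Members and lists were chosen with earlier results of these data known. Alternatives were DESeq2, other size factors, filters, a quasi-binomial model, the replicate number as a block and leaving out each library.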

Additional observations from a re-analysis of the deposited data

Results flagged for a closer look

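Of 50 groups of values of the miR-30 members examined for a library far from the others of its genotype, 3 were singled out, and chance gives about 1 in 20. miR-30a-5p had 132 CPM in library 5 of Tut4/7CTL, against 277 to 318 in the other Tut4/7CTL libraries. miR-30b-5p had 412 CPM in library 4 of Tut4/7cKO, against 70.6 to 109 in the other Tut4/7cKO libraries. miR-30d-5p reads that ended short made up 34.3% in the same library, against 42.7% to 43.5% in the other 3.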

How the results depend on the processing

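Of 374 values of the 25 miR-30 results on abundance, tails and short reads under the alternatives, 351 kept their direction and their side of the threshold. The 2 of these that no longer passed were tails of miR-30a-3p without library 3 of Tut4/7cKO (all tails and 1 added T). That left 1 member called for each, and leaving out other libraries left 2. The arm comparisons are outside this tally. Both arm contrasts no longer passed in percentage points and with the replicate block, as given below. The miR-30e arm ratio passed only without library 2 of Tut4/7cKO. Longer tails of miR-30e-3p passed in a quasi-binomial model, which called 2 members, and without library 2 of Tut4/7CTL, so that leaving out libraries gave 1 to 2 members. Over all miRNAs, abundance calls numbered 11 with DESeq2, 2 with upper quartile factors, 18 without a filter, 0 with the replicate block and 0 to 2 without single libraries, with 0 members called in each. Calls of short reads were 14 with DESeq2, 5 with at least 50 reads, 3 with the block and 2 to 11 without single libraries. Calls over all alternatives ranged from 61 to 100 for all tails, 62 to 97 for 1 added T and 36 to 56 for 2 or 3.

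The 19 values that turned in direction belonged to 7 results, none of which passed the test. Log2 abundance turned for miR-30b-5p (−0.060 with the block, and −0.72 to 0.61 without single libraries, turned without library 4 of Tut4/7cKO), for miR-30c-5p (−0.0013 without a filter, and −0.081 to 0.19 without single libraries, turned without libraries 2 and 5 of Tut4/7CTL) and for miR-30e-3p (−0.081 with the block, and −0.15 to 0.28 without single libraries, turned without library 5 of Tut4/7CTL and libraries 2 and 3 of Tut4/7cKO). Without single libraries the log2 odds ratio of miR-30a-5p ranged from −0.16 to 0.19 for all tails and from −0.16 to 0.18 for 1 added T (turned without libraries 3 and 5 of Tut4/7CTL and 2 and 3 of Tut4/7cKO), and from −0.17 to 0.21 for short reads (turned without library 2 of Tut4/7cKO). That of miR-30d-5p for 1 added T ranged from −0.47 to 0.00011 (turned without library 5 of Tut4/7CTL). The cause was not tested.

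The arm contrast of uridylation, −1.91 in miR-30a and −12.9 in miR-30e in percentage points, did not pass on that scale; without single libraries it ranged from −2.38 to −1.66 and −4.98 to −3.65 in log2 odds. The difference in arm ratio ranged from 0.18 (without library 4 of Tut4/7cKO) to 0.84 (without library 2 of Tut4/7cKO) in miR-30a and from 0.30 to 1.08 in miR-30e. The replicate numbers were not taken as pairs, since same-numbered libraries had correlated deviations of −0.11, −0.20, 0.43 and 0.08, and 1 of the 4 Tut4/7cKO libraries correlated best with its own number. With the replicate block the arm contrasts were −2.03 and −4.70 (both p = 0.125, exact sign-flip permutation test, the smallest possible with 4 pairs), and the block changed no other member's call. Depth limits miR-30e-5p (75 reads), which was below the read filter and entered only the arm comparisons, and miR-30b-5p (422 reads, none tailed).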
